A study of Mus musculus with 18 samples.

Results

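Regulatory T cells (Treg) were compared with effector T cells (Teff) of the same organs, spleen and lymph node, in Foxp3GFP mice. The comparison uses 4 of the 18 arrays of the series, chosen by their titles: 2 arrays of Treg cells and 2 arrays of Teff cells. Treg cells were sorted as Foxp3-positive and Teff cells as Foxp3-negative CD4+ T cells. In Foxp3GFP mice a green fluorescent protein reports Foxp3, so the sort read Foxp3 through the reporter. The labels name no treatment for either group.

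Mice were 6 to 8 weeks old in both groups. CD4 T cells were enriched on beads by positive selection and sorted 2 times on GFP, per the labels' protocols, and total RNA was labelled with biotin for Affymetrix arrays. The labels do not say whether the arrays of a group come from separate animals or from a pool. The p-values therefore measure only a spread between arrays, which may be technical. That spread was estimated from the 4 arrays compared here together with 4 tumour arrays of the same table. An SE can thus be wider or narrower than the 4 arrays alone show. That of Esm1 was 0.413, with standard deviations of 0.117 in Treg and 0.0545 in Teff. That of 1810009J06Rik was 0.232, with standard deviations of 0.05 in Treg and 0.56 in Teff. The Teff label covers all Foxp3-negative CD4 T cells that were sorted, with no further gate named in the sources used here. In RNA from sorted populations, fewer cells of a type and less RNA per cell cannot be told apart.

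Treg cells are CD4 T cells that restrain the responses of other lymphocytes. Their identity rests on the transcription factor Foxp3, mutation of which causes fatal autoimmunity in mice and in people. They make little interleukin-2 themselves and take it up through a high-affinity receptor, and they carry surface molecules such as Ctla4 that limit costimulation by antigen-presenting cells. Foxp3-negative CD4 T cells of spleen and lymph node include naive, memory, follicular helper and cytokine-producing cells.

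All values are log2 expression values as deposited, and every difference is the mean of the Treg arrays minus the mean of the Teff arrays on that scale, so that a difference of 1 is a 2-fold change. The medians of the 4 arrays lay between 5.86 and 5.87. Arrays of 1 group correlated at 0.996 for Treg and 0.997 for Teff over all probe sets, against 0.985 to 0.986 between arrays of different groups. A short set of secreted gland proteins and immunoglobulin genes differed widely between arrays of the same group and is described near the end. The number of arrays limits the precision.

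The sort was visible in Foxp3 itself. It read 9.99 and 9.95 in the Treg arrays, against 3.19 and 3.05 in the Teff arrays. Both Treg arrays lay far above both Teff arrays, and the arrays of a group differed by much less than the groups. The difference was 6.85 (SE 0.0907, limma adjusted p = 9.21e-09), a 116-fold higher level in Treg. No other gene measured rose as far. Since the cells were sorted on Foxp3, this value checks the labels and is no finding between the groups.

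Differences between Treg and Teff were widespread but mostly small. Of 22626 probe sets tested, 2819 (12.5%) were called at an adjusted p under 0.05 in limma, 1424 (6.29%) higher and 1395 (6.17%) lower in Treg. The smallest called difference was 0.291 and the median called difference 0.627 in size, and 1259 called probe sets differed by less than 1.5-fold. A change of at least 2-fold was called for 640 probe sets (2.83%), of which 352 (1.56%) were higher and 288 (1.27%) lower. The total was smaller in each of the 4 fits that left out 1 array, whichever array it was. Such a fit leaves a group with 1 array. The count at 2-fold or more lay between 585 and 666 in the same 4 fits.

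Counted by gene, each read from its probe set with the highest mean, 1762 of 13231 genes (13.3%) were called, 954 (7.21%) higher and 808 (6.11%) lower. These shares are the background for the gene groups that follow, as is the median difference of -0.00 over all genes. By at least 2-fold, 433 genes (3.27%) changed, 247 (1.87%) of them higher and 186 (1.41%) lower. Large rises outnumbered large falls: 66 genes rose and 35 fell by at least 2 on the log2 scale, and 14 rose and 9 fell by at least 3. A gap between the groups alone is common in a design of this size, since both Treg arrays lay above both Teff arrays in 26.9% of genes and below them in 27.3%.

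**Figure D1:**
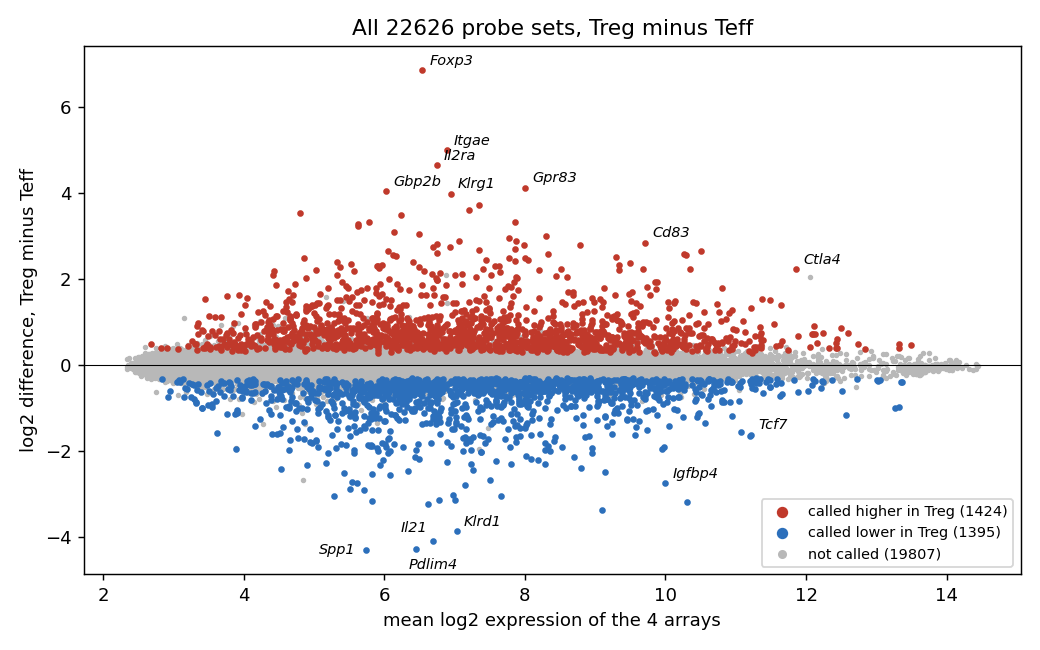
Mean log2 expression of the 4 arrays (x axis) against the log2 difference Treg minus Teff (y axis) for 22626 probe sets, 1 point each, coloured by call at an adjusted p under 0.05. Foxp3 stands at 6.85, above Itgae at 4.99 and Il2ra at 4.63, while Spp1, Pdlim4 and Il21 lie below -4.

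The surface genes by which Treg cells are commonly recognised were higher in Treg wherever they had a probe set. The list was chosen for that direction, so its count describes the sort and is no separate evidence. Of 18 listed genes 17 had a probe set, and 17 of 17 were called higher, with a median difference of 2.31. Each of these calls held under every alternative tried.

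The largest of them was Itgae, the alpha chain of the integrin CD103 that binds E-cadherin on epithelium, at 9.33 and 9.44 in Treg arrays and 4.46 and 4.33 in Teff arrays. Gpr83, an orphan receptor, read 10.11 and 10.02 in Treg arrays and 6.13 and 5.77 in Teff arrays. Klrg1, a lectin-like inhibitory receptor of differentiated T cells, read 8.78 and 9.08 in Treg arrays and 5.06 and 4.85 in Teff arrays. In all 3 genes the lower Treg array stood more than 3 units above the higher Teff array, and the differences were 4.99, 4.12 and 3.98 (adjusted p at most 7.76e-06).

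Cd83, an activation marker of dendritic cells and of some T cells, differed by 2.84, and Il1rl1, the receptor for the alarmin interleukin-33, by 2.82 (2.04 averaged over its probe sets). Entpd1 (CD39) and Nt5e (CD73), the ectoenzymes that turn extracellular ATP into adenosine, differed by 1.75 and 1.45. Nt5e was the least even of the list in Teff, at 6.59 and 5.93, while both Treg arrays read 7.71. Izumo1r, the folate receptor FR4, rose by 1.46, Nrp1, a semaphorin receptor, by 1.42, Icos, a costimulatory receptor, by 1.33, and Ptger4, a prostaglandin E2 receptor, by 0.95.

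Among Foxp3 and transcription factors known to act with it, Ikzf4 and Ikzf2 of the Ikaros family were higher in Treg. Of 21 measured factors 7 were higher, 3 lower and 11 not called, with a median of 0.22. Ikzf4 (Eos) read 9.35 and 9.15 in Treg arrays and 6.27 and 6.32 in Teff arrays, a difference of 2.95 (SE 0.123, adjusted p = 5.81e-06). Averaged over its probe sets, Ikzf4 differed by 1.88. Ikzf2 (Helios) read 7.78 and 7.53 in Treg arrays and 5.46 and 5.48 in Teff arrays, a difference of 2.18. For these 2 genes the Treg arrays lay clear of the Teff arrays. Ikzf1 (Ikaros) was called lower, at 4.74 and 5.01 in Treg arrays and 5.52 and 5.55 in Teff arrays. Its difference of -0.66 was read below the median of each array, and the call was lost in at least 1 alternative. Ikzf3 has no probe set under this name.

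Other partners differed little or not detectably. Runx1 (-0.08), Cbfb (-0.11), Ets1 (-0.09) and Nfatc2 (-0.03), which bind DNA with Foxp3 or beside it, were not called. Gata3 rose by 0.77, Hif1a by 0.67, Rel by 0.53 and Foxo1 by 0.52, and Foxp1, a forkhead factor of naive T cells, fell by 0.74. Of the 10 calls in this list 4 held under every alternative, those of Foxp3, Ikzf2, Ikzf4 and Hif1a. The calls of Ikzf1, Gata3, Nfatc3, Rel, Foxo1 and Foxp1 were each lost in at least 1 alternative.

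In the interleukin-2 system, the cytokine was lower and its receptor higher in Treg. Il2, the growth factor of activated T cells, read 4.49 and 3.87 in Treg arrays and 6.93 and 6.45 in Teff arrays, and fell by 2.51. Il2ra, which makes the receptor high in affinity, read 9.12 and 9.01 in Treg arrays and 4.39 and 4.48 in Teff arrays, a difference of 4.63 (SE 0.145, adjusted p = 2.48e-06), or 3.86 averaged over its probe sets. Il2rb, the signalling chain shared with interleukin-15, read 8.51 and 9.05 in Treg arrays and 6.60 and 6.35 in Teff arrays. The groups did not overlap in any of these 3 genes, and the gap was widest for Il2ra.

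The common gamma chain Il2rg was at 11.88 and 12.20 in Treg arrays and 11.96 and 12.10 in Teff arrays, with a difference of 0.01. Below the receptor, 2 feedback inhibitors that STAT5 is known to induce rose together: Cish by 2.08 and Socs2 by 2.10. Their relatives Socs1 (0.48) and Socs3 (-0.41), and Stat5a (0.53, adjusted p = 0.051) and Stat5b (0.22), were not called. Il7r, the receptor for the survival cytokine of naive cells, fell by 0.62, a call lost in at least 1 alternative. Of 20 genes of this pathway 4 rose, 4 fell and 12 were not called (median 0.06), the falls being Il21, Il2, Il4 and Il7r.

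In the tumour necrosis factor family, some of the receptors rose in Treg and none fell, while the ligands changed in both directions. Tnfrsf9 (4-1BB) read 10.20 and 10.15 in Treg arrays and 7.45 and 7.33 in Teff arrays. Tnfrsf4 (OX40) read 11.85 and 11.81 in Treg arrays and 9.10 and 9.27 in Teff arrays. Tnfrsf1b (TNFR2), a receptor for tumour necrosis factor, read 10.60 and 10.41 in Treg arrays and 8.21 and 8.15 in Teff arrays. These costimulatory receptors rose by 2.79, 2.64 and 2.33 (1.57 for Tnfrsf1b averaged over its probe sets), and Tnfrsf18 (GITR) by 2.24 and Cd27 by 0.87.

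The other receptors of the list were not called, with differences of -0.31 for Tnfrsf14, -0.29 for Tnfrsf1a, -0.03 for Tnfrsf25 and 0.40 for Fas. Among ligands, Fasl, which triggers apoptosis through Fas, read 5.64 and 5.88 in Treg arrays and 7.93 and 8.10 in Teff arrays, and fell by 2.26. Tnfsf8, the ligand of CD30, fell by 2.11 and Cd40lg, through which helper T cells activate B cells, by 0.75. Lta, a lymphotoxin chain, rose by 0.67 and Tnfsf10 (TRAIL) by 0.58. Over the list of 24, 8 rose, 4 fell and 12 were not called (median 0.07). The calls of Tnfsf10, Tnfsf14, Cd40lg and the adaptor Traf3 were lost in at least 1 alternative.

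In the CD28 family, ligands that are best known from antigen-presenting cells rose in Treg together with Ctla4. Ctla4, the inhibitory receptor that competes with CD28, read 12.94 and 13.02 in Treg arrays and 10.71 and 10.78 in Teff arrays, a difference of 2.23. Its ligand Cd86 read 7.47 and 7.23 in Treg arrays and 5.62 and 5.80 in Teff arrays, and rose by 1.64. Cd80, the other ligand, rose by 1.38 (0.73 averaged over its probe sets), and the PD-1 ligands Pdcd1lg2 and Cd274 by 1.55 and 0.71. Cd28 itself fell by 0.43. Both Cd28 and Cd80 lost their call in at least 1 alternative.

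Coinhibitory receptors associated with chronically stimulated T cells did not follow. Pdcd1 (PD-1) read 8.49 and 8.45 in Treg arrays and 8.53 and 8.29 in Teff arrays, with a difference of 0.06. Lag3 (0.40, adjusted p = 0.31), Havcr2 (0.64, adjusted p = 0.12), Cd160 (-0.04) and Cd96 (0.25) were not called either. Of 17 measured members 7 rose, 1 fell and 9 were not called, with a median of 0.40. Btla, Tigit and Cd226 have no probe set under these names.

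Of 12 measured mediators of suppression and of tissue repair 9 were called higher in Treg and none lower, with a median of 1.81. Over all genes 7.21% were called higher. The list was chosen with earlier results of these data known and repeats Entpd1 and Nt5e, so its count is no separate evidence. Fgl2, a secreted fibrinogen-like protein with suppressive activity, read 8.94 and 9.07 in Treg arrays and 5.39 and 5.42 in Teff arrays, and rose by 3.60 (SE 0.0863, adjusted p = 4.26e-07). Areg, the epidermal growth factor receptor ligand of tissue repair, read 8.42 and 8.60 in Treg arrays and 5.21 and 6.03 in Teff arrays. Il10, an anti-inflammatory cytokine, read 9.16 and 9.36 in Treg arrays and 6.68 and 6.96 in Teff arrays. The Teff arrays differed most in Areg, yet the Treg arrays lay more than 2 units above the higher of them.

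Gzmb, a granule protease, rose by 2.74, Penk, the enkephalin precursor, by 2.21, and Ebi3, a subunit of interleukins 27 and 35, by 1.87. The partner chain of interleukin-35, Il12a, read 3.82 and 4.03 in Treg arrays and 3.80 and 3.84 in Teff arrays and was not called. Tgfb1 read 7.07 and 6.54 in Treg arrays and 6.56 and 6.26 in Teff arrays, so that the groups overlapped in range and the difference of 0.40 was not called. The 9 calls of this list held under every alternative.

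Downstream of adenosine, the genes of the cyclic AMP pathway changed in both directions. The enzymes Entpd1 and Nt5e are given above. The adenosine receptor Adora2a rose by 0.54 and Crem, a cyclic AMP-responsive transcription factor, by 0.94. Pde7a, a phosphodiesterase that degrades cyclic AMP, read 7.56 and 7.37 in Treg arrays and 8.76 and 8.72 in Teff arrays, and fell by 1.27. Pde4b fell by 0.74 and the adenylyl cyclase Adcy7 by 0.45, while Dpp4 (0.13), Ada (-0.02) and Adk (-0.10) were not called. The counts were 4 higher, 3 lower and 10 not called of 17 (median 0.21), and of the 7 calls those of Adora2a, Adcy7, Pde4b and Crem were lost in at least 1 alternative.

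Of 13 measured cytokines of helper T cells 5 fell in Treg, 3 rose and 5 were not called (median -0.45). Il21, the cytokine by which follicular helper cells drive B cell responses, read 4.66 and 4.65 in Treg arrays and 8.73 and 8.76 in Teff arrays, and fell by 4.09 (SE 0.192, adjusted p = 8.44e-06). Ifng, the signature cytokine of T helper 1 cells, read 5.99 and 6.17 in Treg arrays and 8.45 and 8.31 in Teff arrays. Il4, that of T helper 2 cells, read 3.84 and 3.64 in Treg arrays and 6.06 and 6.07 in Teff arrays. The Treg arrays lay at least 2 units below the Teff arrays in each of these.

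Il17a, the cytokine of T helper 17 cells, fell by 0.61. Il5, Il13, Il3 and Csf2 were not called, with differences of -0.07, -0.07, -0.26 and -0.45, and Tnf differed by -0.60 (adjusted p = 0.064). Csf1, the macrophage growth factor, rose by 0.74, Lta by 0.67 and Lif by 0.42. The calls of Il17a, Csf1 and Lif were lost in at least 1 alternative.

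Of 9 listed genes for chemokines that T cells secrete, 5 were called lower, none higher and 4 not called (median -0.62). The uncalled ones were Ccl20 (0.32), Cxcl10 (0.39), Ccl1 (-0.08) and Ccl22 (-0.11). Cxcl2, a chemokine outside the list, rose by 3.22 and is described with the largest changes. Spp1 (osteopontin), listed here although it is a secreted phosphoprotein and no chemokine, read 3.91 and 3.27 in Treg arrays and 8.19 and 7.59 in Teff arrays, and fell by 4.30 (SE 0.392, adjusted p = 0.000224). Ccl3 fell by 2.03, Ccl4 by 1.34 and Ccl5 by 0.62. Xcl1, lymphotactin, fell by 1.88. Ccl5 lost its call in at least 1 alternative.

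Of 14 receptors for inflammatory chemokines 8 rose in Treg, 1 fell and 5 were not called (median 0.59). Ccr6, the receptor for Ccl20, read 9.02 and 9.03 in Treg arrays and 6.71 and 6.35 in Teff arrays, a difference of 2.50. Ccr2, which guides cells to Ccl2 at sites of inflammation, read 8.46 and 8.58 in Treg arrays and 6.20 and 6.37 in Teff arrays, a difference of 2.24. Ccr8 read 6.26 and 5.53 in Treg arrays and 3.61 and 4.14 in Teff arrays, more variable in both groups but without overlap. Ccrl2 rose by 1.49, Ccr4 by 0.91, Ccr3 by 0.75 and Cxcr4 by 0.43.

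Cxcr6, a receptor of tissue-resident and liver-homing T cells, went the other way, at 5.54 and 4.89 in Treg arrays and 8.30 and 8.37 in Teff arrays, and fell by 3.12 (SE 0.282, adjusted p = 0.000215). The uncalled receptors were Cxcr3, the receptor of T helper 1 cells (0.18), Ccr1 (0.11), Ccr10 (0.00), Xcr1 (-0.05) and Cx3cr1 (-0.15). Ccr3, Ccr4 and Cxcr4 lost their call in at least 1 alternative.

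Receptors that keep T cells circulating through lymphoid organs were lower or not called. S1pr1, which lets lymphocytes leave lymph nodes, read 9.09 and 8.85 in Treg arrays and 10.28 and 10.27 in Teff arrays, and fell by 1.30. Ccr7, which brings cells into the T cell zones, read 10.38 and 10.32 in Treg arrays and 11.45 and 11.62 in Teff arrays, and fell by 1.18. Klf2, a transcription factor that maintains S1pr1, fell by 0.72. Cd44, a usual marker of experienced cells, was not called, with a difference of 0.05. No member of 11 rose, 4 fell and 7 were not called (median -0.25), and Klf2 and Itga4 lost their call in at least 1 alternative.

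Integrin chains showed no common direction apart from Itgae, with 3 of 14 higher, 4 lower and 7 not called (median -0.01). Itgav, which pairs with chains that activate TGF-beta, rose by 0.93 and Itga6 by 0.50. Itgb1, the shared chain of the collagen and fibronectin receptors, read 9.53 and 9.48 in Treg arrays and 10.33 and 10.30 in Teff arrays, and fell by 0.81. Itgb7, the known partner chain of Itgae, read 10.97 and 10.73 in Treg arrays and 10.63 and 10.54 in Teff arrays and was not called (0.26). Itgae and Itgav kept their calls under every alternative, and Itga4, Itga6, Itgax, Itgb1 and Itgb5 (-0.88, or -0.10 averaged over its probe sets) did not.

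Regulators of quiescence and of the naive state were lower in Treg. Tcf7 (TCF1), a factor of naive and stem-like T cells, read 10.52 and 10.31 in Treg arrays and 12.02 and 12.03 in Teff arrays. Lef1, its close relative, read 7.80 and 7.39 in Treg arrays and 9.30 and 9.21 in Teff arrays. Satb1, an organiser of chromatin that Foxp3 is known to repress, read 10.34 and 10.41 in Treg arrays and 11.96 and 12.08 in Teff arrays. The falls were alike in size at 1.61, 1.66 and 1.64, and in each gene the Treg arrays lay more than 1 unit below the Teff arrays.

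The largest fall of the list was that of Igfbp4, an insulin-like growth factor binding protein and a marker of naive CD4 cells, at 2.74, while Bach2, a repressor of effector programmes, fell by 0.99. Tob1, Btg2 and Slfn2, known to restrain T cell proliferation, fell by 0.71, 0.67 and 0.61. Foxo1 was the only member called higher, and Id3 (0.16), Klf3 (-0.18), Btg1 (-0.08) and Tsc1 (-0.06) were not called. Of 17 measured, 10 fell, 1 rose and 6 were not called, with a median of -0.67. Klf2, Foxo1, Foxp1, Tob1 and Btg2 lost their call in at least 1 alternative.

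**Figure D2:**
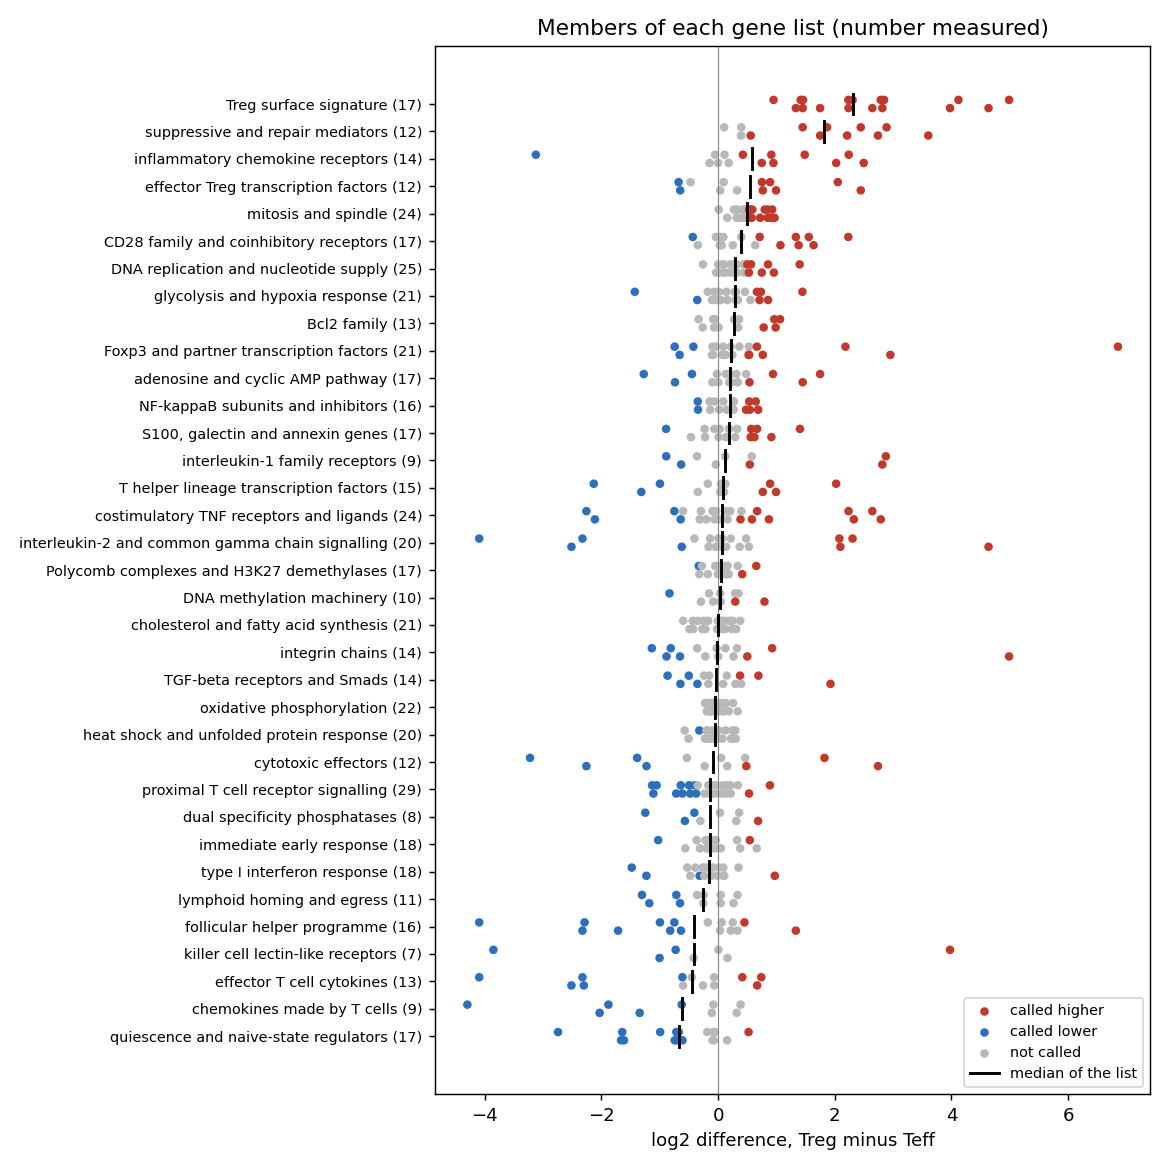
Log2 difference Treg minus Teff (x axis) of each measured member of 35 gene lists, ordered by the median of the list (black bar); points are genes, coloured by call at an adjusted p under 0.05. The Treg surface list has the highest median at 2.31 and the quiescence list the lowest at -0.67, while oxidative phosphorylation has no called member.

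Of 12 measured transcription factors of effector Treg cells 6 rose, 2 fell and 4 were not called (median 0.54). Prdm1 (Blimp-1), which marks Treg cells that make interleukin-10, read 8.77 and 8.57 in Treg arrays and 6.28 and 6.17 in Teff arrays, a difference of 2.44. Nfil3 read 9.63 and 9.64 in Treg arrays and 7.67 and 7.49 in Teff arrays, a difference of 2.05. Batf rose by 0.99, Rora by 0.89, Gata3 by 0.77 and Irf4 by 0.75. Maf (0.04) and Pparg, the factor of fat-resident Treg cells (0.10), were not called, and Id2 and Zbtb32 fell by 0.68 and 0.65. The calls of Irf4, Gata3, Id2 and Zbtb32 were lost in at least 1 alternative.

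Among factors of the helper lineages, 2 of T helper 1 cells fell. Eomes read 5.35 and 5.39 in Treg arrays and 7.82 and 7.18 in Teff arrays, and Tbx21 (T-bet) read 6.09 and 6.18 in Treg arrays and 7.44 and 7.47 in Teff arrays. They fell by 2.13 and 1.31. Other factors linked to T helper 1 cells, Stat4 (-0.35), Runx3 (0.09) and Hlx (0.10), were not called. Ahr, the receptor for aryl hydrocarbons, read 8.91 and 8.88 in Treg arrays and 6.77 and 6.97 in Teff arrays, and rose by 2.02 (1.15 averaged over its probe sets). Bcl6 (-0.18) and Stat3 (0.13) were not called. The list of 15 held 4 rises, 3 falls and 8 uncalled members, with a median of 0.09.

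Of 16 genes of the follicular helper programme 8 fell, 2 rose and 6 were not called (median -0.41). Il21, Il4, Cd40lg and the factor Ascl2 fell, as did Sostdc1, a secreted antagonist of Wnt and BMP signals, by 2.29, and Pou2af1, a coactivator of octamer factors, by 1.71. Slamf6 and Il6ra fell by 0.82 and 0.64. Cxcr5, the receptor that leads cells into follicles, read 8.49 and 8.43 in Treg arrays and 8.22 and 8.03 in Teff arrays and was not called (0.33). Icos rose by 1.33 and the signalling adaptor Sh2d1a by 0.45. Cd40lg and Sh2d1a lost their call in at least 1 alternative.

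Of 29 measured genes of the T cell receptor and its first signalling steps 10 fell, 2 rose and 17 were not called (median -0.13). Over all genes 6.11% were called lower and 7.21% higher. Txk, a Tec family kinase, read 7.59 and 7.49 in Treg arrays and 8.72 and 8.63 in Teff arrays. It fell by 1.13, and Pag1, an adaptor that recruits the inhibitory kinase Csk, by 1.05. Prkcq (PKC-theta) fell by 0.50, Dgka by 0.61 and Cd247, the zeta chain, by 0.40. Sla and Cbl, negative regulators of the receptor, rose by 0.89 and 0.53. Lck (-0.05), Zap70 (-0.23), Cd3e (0.22) and Cd3g (0.08) were not called. The calls of Cd247, Cd4, Tec, Prkcq and Ptpn6 were lost in at least 1 alternative.

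Of 18 genes induced within minutes of stimulation, Myc rose by 0.54, a call lost in at least 1 alternative. Ier2 fell by 1.03, and 16 were not called (median -0.14). Over all genes 13.3% were called, so the count is near that of genes in general. Nr4a1, often used as a reporter of recent receptor signals, read 11.14 and 11.27 in Treg arrays and 10.81 and 10.94 in Teff arrays (0.33, adjusted p = 0.49). Egr2 (0.38), Fos (-0.11) and Jun (-0.22) also missed the threshold. So did Nr4a2 (0.66) and Atf3 (-0.56), which differed by more than Myc in size and were each called in at least 1 alternative. Among 8 phosphatases that switch off MAP kinases, Dusp10 fell by 1.25, Dusp6 by 0.57 and Dusp2 by 0.41, and Dusp16 rose by 0.69. Dusp6 and Dusp2 lost their call in at least 1 alternative.

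Of 16 measured subunits, inhibitors and kinases of NF-kappaB 5 rose, 2 fell and 9 were not called (median 0.21). Relb rose by 0.54, Nfkb2 by 0.48, Rel by 0.53, Bcl3 by 0.69 and Tnip1 by 0.65. Rela (0.15), Nfkb1 (0.27) and the inhibitors Nfkbia (0.26), Nfkbib (0.02), Nfkbie (0.27), Nfkbiz (0.09) and Tnfaip3 (-0.15) were not called. The kinases Ikbkb and Map3k14 fell by 0.34 and 0.35. The calls of Nfkb2, Rel, Ikbkb and Map3k14 were lost in at least 1 alternative.

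Within the Bcl2 family, members of opposite function rose together. The survival proteins Bcl2l1 (Bcl-xL) and Bcl2l2 rose by 0.96 and 0.78 (0.19 and not called for Bcl2l2 averaged over its probe sets), and the death-promoting Bid and Pmaip1 (Noxa) by 1.06 and 0.99. Bid read 8.09 and 7.93 in Treg arrays and 6.89 and 7.0 in Teff arrays. Bcl2 (-0.33), Mcl1 (-0.05) and Bcl2l11 (Bim, -0.26) were not called. The count was 4 higher, none lower and 9 not called of 13 (median 0.27), and only Bcl2l2 lost its call in an alternative.

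The receptors for TGF-beta, a cytokine that supports induction of Foxp3, changed in opposite directions. Tgfbr1, the type I chain, read 10.85 and 10.77 in Treg arrays and 8.85 and 8.91 in Teff arrays, and rose by 1.93 (adjusted p = 1.1e-05). Its size depended on the probe set, since the average over its probe sets rose by 0.69 and stayed called. Tgfbr2, the ligand-binding type II chain, read 10.47 and 10.33 in Treg arrays and 11.30 and 11.24 in Teff arrays, and fell by 0.86. The groups were apart in both genes. Smad7, an inhibitor of the pathway, fell by 0.50, Skil rose by 0.38, and Smad2 (-0.17) and Smad3 (0.09) were not called. In total 3 of 14 rose, 4 fell and 7 were not called (median -0.03), and Smad4, Smad7, Skil and Tgif1 lost their call in at least 1 alternative.

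Granule and lectin-like receptor genes changed in both directions. Klrd1 (CD94), a receptor chain of natural killer and cytotoxic T cells, read 5.03 and 5.19 in Treg arrays and 8.99 and 8.92 in Teff arrays, and fell by 3.85. Gzmk, a granzyme of memory T cells, read 5.08 and 4.95 in Treg arrays and 8.29 and 8.18 in Teff arrays, and fell by 3.22. Gzmb rose by 2.74, at 8.49 and 8.12 in Treg arrays and 5.57 and 5.56 in Teff arrays. Gzmk and Gzmb are both granzymes, and each was separated between groups, in opposite directions.

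Nkg7, Prf1 (perforin) and Fasl fell by 1.39, 1.23 and 2.26, while Cst7, an inhibitor of granule proteases, and Srgn, the granule proteoglycan, rose by 1.82 and 0.48. Of 12 cytotoxic genes 3 rose, 4 fell and 5 were not called (median -0.09), and these 7 calls held under every alternative. Among 7 killer lectin-like receptors Klrg1 rose, Klrd1, Klrk1 and Klrc1 fell, and 3 were not called (median -0.42). Klrk1 and Klrc1 lost their call in at least 1 alternative.

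Of 9 genes listed for interleukin-1 family receptors 3 rose, 2 fell and 4 were not called (median 0.12). The list includes Il1rn, the secreted receptor antagonist and no receptor, which was not called (0.58). Il1r2, which binds interleukin-1 without signalling, read 9.24 and 9.38 in Treg arrays and 6.41 and 6.46 in Teff arrays, a difference of 2.88. Il1rl1 read 8.11 and 8.21 in Treg arrays and 5.46 and 5.23 in Teff arrays. Il18r1, a receptor chain for interleukin-18, fell by 0.89, and Il18rap by 0.63, a call lost in at least 1 alternative. Sigirr, an inhibitory member, rose by 0.54.

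Calcium-binding and lectin genes that rise with T cell experience were partly higher. Anxa4 rose by 1.40, S100a10 by 0.91, S100a4 by 0.67, S100a6 by 0.62, Anxa11 by 0.57 and Lgals1 (galectin-1) by 0.56. Anxa1, a mediator that dampens inflammation, fell by 0.89. Of 17 measured 6 rose, 1 fell and 10 were not called (median 0.19), and S100a4, S100a6, Anxa1 and Anxa11 lost their call in at least 1 alternative.

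Among genes of cell division every called difference was a rise in Treg. Mki67, the proliferation antigen Ki-67, read 9.04 and 8.76 in Treg arrays and 7.97 and 7.90 in Teff arrays, a difference of 0.97 (adjusted p = 0.0017). Ccnb2, a mitotic cyclin, read 7.31 and 7.11 in Treg arrays and 6.39 and 6.17 in Teff arrays, and Nusap1, a spindle protein, read 7.13 and 7.10 in Treg arrays and 6.21 and 6.20 in Teff arrays. They rose by 0.93 and 0.91. Both Treg arrays lay above both Teff arrays in 23 of the 24 mitotic genes, against 26.9% of all genes.

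Of these 24 genes 12 were called higher, none lower and 12 not called, with a median of 0.50. Calls of 6 of them (Cdk1, Ccnb1, Bub1, Cenpa, Birc5 and Tpx2) were lost in at least 1 alternative. For replication and nucleotide supply, 7 of 25 were called higher, none lower and 18 not called (median 0.29). Tk1 (thymidine kinase) rose by 1.40, Rrm2 (ribonucleotide reductase) by 0.96, Cdc6 by 0.86 and Mcm6 by 0.75, whereas Pcna (0.00), Mcm7 (-0.03) and Mcm2 (0.09) were not called. Cdc6, Rrm1, Gmnn and Gins1 lost their call in at least 1 alternative.

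Metabolic genes were called in the glycolysis list but not in those of oxidative phosphorylation or lipid synthesis. Slc2a3, a glucose transporter, read 11.14 and 11.19 in Treg arrays and 9.71 and 9.73 in Teff arrays, and rose by 1.45 (0.81 averaged over its probe sets). Pdk1, the kinase that restrains entry of pyruvate into mitochondria, read 8.76 and 8.98 in Treg arrays and 10.11 and 10.49 in Teff arrays, and fell by 1.43. Tpi1 rose by 0.86, and Ldha (0.05), Pkm (-0.03) and Slc2a1 (0.14) were not called. The glycolysis and hypoxia list had 5 of 21 higher, 2 lower and 14 not called (median 0.29), and Eno1 and P4ha1 lost their call in at least 1 alternative.

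None of 22 genes of oxidative phosphorylation and none of 21 of cholesterol and fatty acid synthesis was called, with medians of -0.05 and -0.00. Their differences lay within -0.22 and 0.34, and within -0.60 and 0.38. Of 20 heat shock and unfolded protein genes Atf4 alone was called, lower by 0.32, and lost its call in at least 1 alternative (median -0.05). The 2 heat shock genes Hspa1a (-0.51) and Dnajb1 (-0.57) were not called, though each was called in at least 1 alternative.

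Of 18 measured interferon-induced genes 3 fell, 1 rose and 14 were not called (median -0.16), where 13.3% of all genes were called. Oas2 and Oasl2, members of the oligoadenylate synthetase family, read 6.36 and 6.16, and 5.08 and 4.87, in Treg arrays, against 7.82 and 7.66, and 6.15 and 6.26, in Teff arrays. They fell by 1.48 and 1.23. Isg20, an exonuclease, rose by 0.97, and Ifit2 fell by 0.32, a call lost in at least 1 alternative. Irf7 (-0.53, adjusted p = 0.0515) and Mx1 (-0.11) were not called, though Irf7 was called lower in at least 1 alternative.

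Chromatin regulators differed by small steps. In the Polycomb list Cbx7 and Phc1 rose by 0.66 and 0.41, Bmi1 fell by 0.33 and 14 of 17 were not called (median 0.04), among them Ezh2, the H3K27 methyltransferase (0.34, adjusted p = 0.097). In the DNA methylation list Uhrf1, which brings Dnmt1 to newly copied DNA, rose by 0.80, Dnmt3a rose by 0.29, and Tet1 fell by 0.83, with 7 of 10 not called (median 0.04). Tet1 read 4.76 and 4.90 in Treg arrays and 5.64 and 5.69 in Teff arrays. Each of the 6 calls in these lists was lost in at least 1 alternative.

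The 15 largest rises and the 15 largest falls included genes that belong to none of these pathways, and all 30 calls held under every alternative. The highest adjusted p that any of them reached was 0.0354, for Esm1. Gbp2b, an interferon-inducible GTPase, read 8.02 and 8.06 in Treg arrays and 3.96 and 4.04 in Teff arrays, and rose by 4.04 (SE 0.0951, adjusted p = 4.26e-07). Gsta4, a glutathione transferase, rose by 3.48, Ncmap, known as a protein of myelin, by 3.33, Matn2, a matrix protein, by 3.28, and Coro2a, an actin-binding coronin, by 3.01. The replicates of each were closer to each other than to any array of the other group. The choice of large differences without overlap favoured this.

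F13a1, a chain of coagulation factor XIII that macrophages also make, read 7.25 and 7.64 in Treg arrays and 4.23 and 4.0 in Teff arrays, and Cxcl2, a chemokine for neutrophils, read 7.12 and 7.37 in Treg arrays and 4.20 and 3.85 in Teff arrays. They rose by 3.33 (SE 0.468) and 3.22 (SE 0.259). In the same arrays the 14 macrophage and dendritic cell markers went both ways, 3 higher, 4 lower and 7 not called (median -0.06). Lyz2 and Csf1r differed by 1.56 and 1.27, calls lost in at least 1 alternative, and Mpeg1 and Tyrobp fell by 2.05 and 2.0. The part of these markers in both rises was not tested.

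On the side of the falls, Pdlim4, an adaptor of the actin cytoskeleton, read 4.38 and 4.24 in Treg arrays and 8.56 and 8.61 in Teff arrays, and fell by 4.28 (SE 0.156, adjusted p = 4.46e-06). Sema4a, a semaphorin that binds Nrp1, read 6.05 and 6.25 in Treg arrays and 9.15 and 9.20 in Teff arrays, and fell by 3.03, while Nrp1 rose. Lratd1 fell by 3.03, Tdrp by 3.02, Stfa3, a stefin that inhibits cysteine proteases, by 2.91 and Ggt5, a gamma-glutamyltransferase, by 2.73. Esm1 (endocan), a secreted proteoglycan, fell by 2.71. D13Ertd608e and 1810009J06Rik fell by 2.66 and 2.56. 1810009J06Rik read 4.84 and 4.77 in Treg arrays and 7.76 and 6.96 in Teff arrays, the widest gap between the Teff arrays among these 30 genes.

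**Figure D3:**
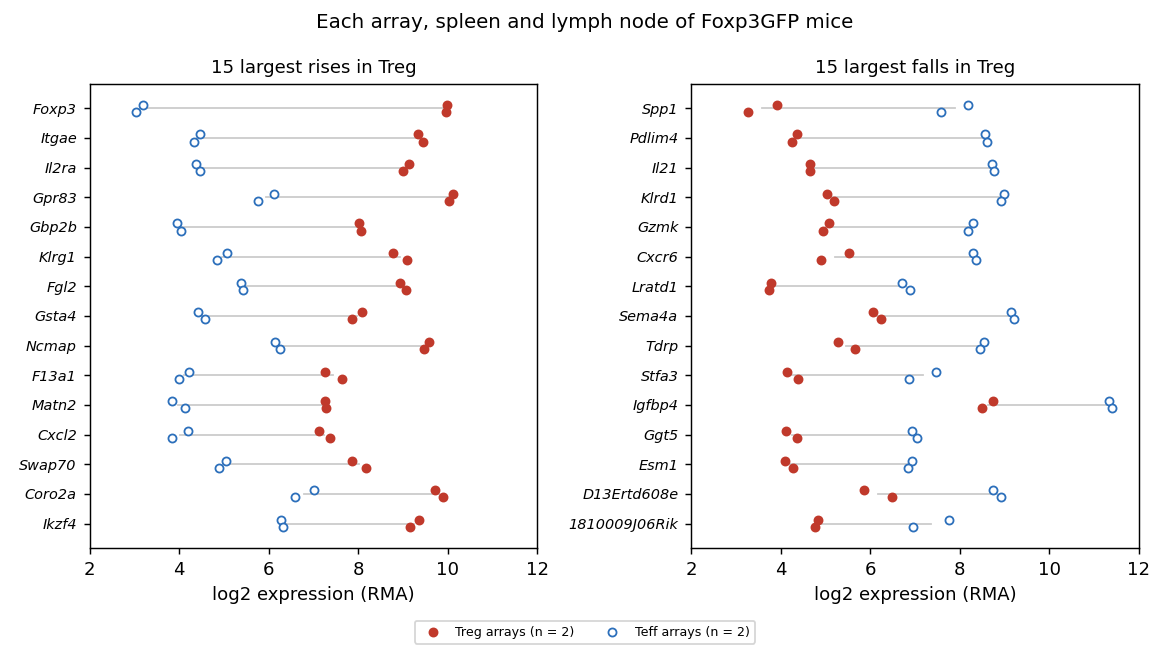
Log2 expression (x axis) of the 15 genes that rose most (left) and the 15 that fell most (right) in Treg, with 1 filled point per Treg array and 1 open point per Teff array; grey lines join the group means. The arrays of a group sit close together, and no gene shows overlap between groups, which the choice of these genes required.

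Promoter sequences were read for genes changed at least 2-fold, since Foxp3 is a forkhead factor and Runx factors are among its partners. The promoter windows run from 250 bases before to 50 bases after the start of a transcript, as RefSeq gives them for GRCm38.p6. The forkhead motif TGTTTAC, searched on both strands, was present in 10 of 228 promoters of 179 genes called higher (4.39%), in 3 of 205 promoters of 141 genes called lower (1.46%) and in 351 of 12928 promoters of all 10176 measured genes with a sequence (2.72%). The Runx motif TGTGGTT was present in 6 of 228 (2.63%), in 11 of 205 (5.37%) and in 509 of 12928 (3.94%). The 2 motifs do not contain each other, the counts were not tested, and a match does not show that a factor binds. The first of the largest rises and the first of the largest falls with a match are shown, with the match in capitals. Swap70 encodes a phosphoinositide-binding signalling protein that interacts with actin, and its window lies on the plus strand at chr7:110221453-110221752 with the forkhead motif on the same strand at position -107 from the start. The Spp1 window lies on the plus strand at chr5:104434861-104435160, with the Runx motif on the opposite strand at position -129 from the start.
Swap70: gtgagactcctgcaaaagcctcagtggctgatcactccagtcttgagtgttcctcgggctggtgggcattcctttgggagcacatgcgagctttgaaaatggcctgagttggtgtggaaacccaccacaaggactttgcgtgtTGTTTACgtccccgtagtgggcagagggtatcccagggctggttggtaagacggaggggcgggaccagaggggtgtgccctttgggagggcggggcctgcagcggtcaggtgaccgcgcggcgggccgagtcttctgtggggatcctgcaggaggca
Spp1: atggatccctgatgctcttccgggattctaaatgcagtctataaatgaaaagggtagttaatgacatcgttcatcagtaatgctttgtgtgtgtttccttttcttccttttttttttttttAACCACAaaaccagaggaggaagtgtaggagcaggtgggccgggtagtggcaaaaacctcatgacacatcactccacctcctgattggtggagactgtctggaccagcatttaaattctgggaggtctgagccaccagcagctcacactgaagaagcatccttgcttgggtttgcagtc
Swap70 read 7.86 and 8.18 in Treg arrays and 5.06 and 4.89 in Teff arrays, a rise of 3.05 (SE 0.151), and Spp1 is given above with the chemokines.

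The sorted populations were checked against markers of T cells and of cells that could accompany them. The deposited values carry no detection call, so a low value is not read as absence. All 10 T cell markers read at least 7.98 on every array, and Cd3d, Cd3e, Cd3g, Lck and Cd5 were not called, with differences of -0.05 to 0.22. Cd2 rose by 0.73, and Thy1, Trat1, Cd4 and Cd247 fell by 0.83, 0.73, 0.48 and 0.40. The CD8 genes Cd8a (4.87 and 5.05 in Treg arrays, 4.95 and 4.85 in Teff arrays) and Cd8b1 (6.59 and 6.56 in Treg arrays, 6.78 and 6.91 in Teff arrays) were not called.

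Genes of plasmacytoid dendritic cells were lower in Treg. Of 11 measured 7 fell, none rose and 4 were not called, with a median of -1.24. Spib, a factor of these cells and of B cells, read 4.92 and 5.14 in Treg arrays and 7.05 and 7.08 in Teff arrays, Ly6d read 6.07 and 6.47 in Treg arrays and 7.94 and 8.20 in Teff arrays, and Irf8 read 7.22 and 7.40 in Treg arrays and 8.50 and 8.61 in Teff arrays. The mean level of the list was 6.37 and 6.61 in Treg arrays and 7.54 and 7.69 in Teff arrays, so that the groups did not overlap. Klk1 (-0.14), Runx2 (-0.27), Bst2 (-0.39) and Ptprf (-0.77) were not called, and Tcf4, Irf8, Cd209d and Upb1 lost their call in at least 1 alternative. Their part in the falls of other genes was not tested.

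Among those 14 macrophage and dendritic cell markers, Lyz2 (lysozyme) read 9.60 and 9.87 in Treg arrays and 8.07 and 8.28 in Teff arrays, and Csf1r, the receptor of the macrophage growth factor, read 7.91 and 8.24 in Treg arrays and 6.69 and 6.93 in Teff arrays. Mpeg1 and Tyrobp, also expressed by dendritic cells, fell by 2.05 and 2.0, Itgax (CD11c) by 1.13 and Flt3 by 1.11. Ctss rose by 0.36, and Adgre1 (F4/80, -0.06), Cd14 (-0.06), Itgam (0.32), Cd68 (-0.44), Fcer1g (-0.78), Fcgr3 (0.08) and Aif1 (0.44) were not called. The mean level of the list was 6.36 and 6.63 in Treg arrays and 6.67 and 6.84 in Teff arrays. Lyz2, Csf1r, Itgax, Ctss and Flt3 lost their call in at least 1 alternative.

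Among 12 B cell genes, the defining markers Pax5 (4.06 and 4.19 in Treg arrays, 4.24 and 4.17 in Teff arrays) and Cd79a (4.26 and 4.15 in Treg arrays, 3.90 and 4.08 in Teff arrays) were not called. Cd79b, a chain of the B cell receptor complex, rose by 1.88, at 6.97 and 6.81 in Treg arrays and 4.80 and 5.22 in Teff arrays. The class II genes H2-Aa and H2-Ab1, shared by B cells, macrophages and dendritic cells, fell by 1.90 and 1.98, and both calls were lost in at least 1 alternative. Others of the list, Ms4a1 (0.12), Cr2 (-0.05), Blk (-0.11), Cd22 (-0.50), Cd72 (0.44) and Fcer2a (0.17), were not called.

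In the natural killer list Klrd1 and Eomes fell, while Ncr1 (3.22 and 3.37 in Treg arrays, 3.67 and 3.65 in Teff arrays), Klrb1c (-0.42) and Klra8 (0.16) were not called. Of 8 neutrophil genes only Mmp9 was called, higher by 0.68, and that call was lost in at least 1 alternative. S100a8, S100a9, Camp, Elane, Ltf, Cxcr2 and Mpo differed by -0.46 to 0.21. None of 5 erythroid, 5 platelet and 9 stromal and endothelial genes was called. Of the plasma cell genes Sdc1, Tnfrsf17 and Jchain were not called, and Jchain read 4.94 and 7.30 in Treg arrays. The listed gene Ighg was measured under the name IGHG and left out of the count. IGHG read 3.84 and 4.03 in Treg arrays and 4.88 and 6.38 in Teff arrays, and was called lower by 1.69 (limma adjusted p = 0.0286). Differences ranged from -0.12 to 0.10 in the erythroid genes Alas2, Hba-a1, Slc4a1 and Epb42 and from 0.01 to 0.39 in the platelet genes Itga2b, Gp9, Gp1bb, Pf4 and Ppbp. The stromal and endothelial genes ran from Cdh5 at -0.73 to Sparc at 1.11, with Pecam1, Kdr, Col1a1, Col3a1, Col1a2, Dcn and Bgn between.

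**Figure D4:**
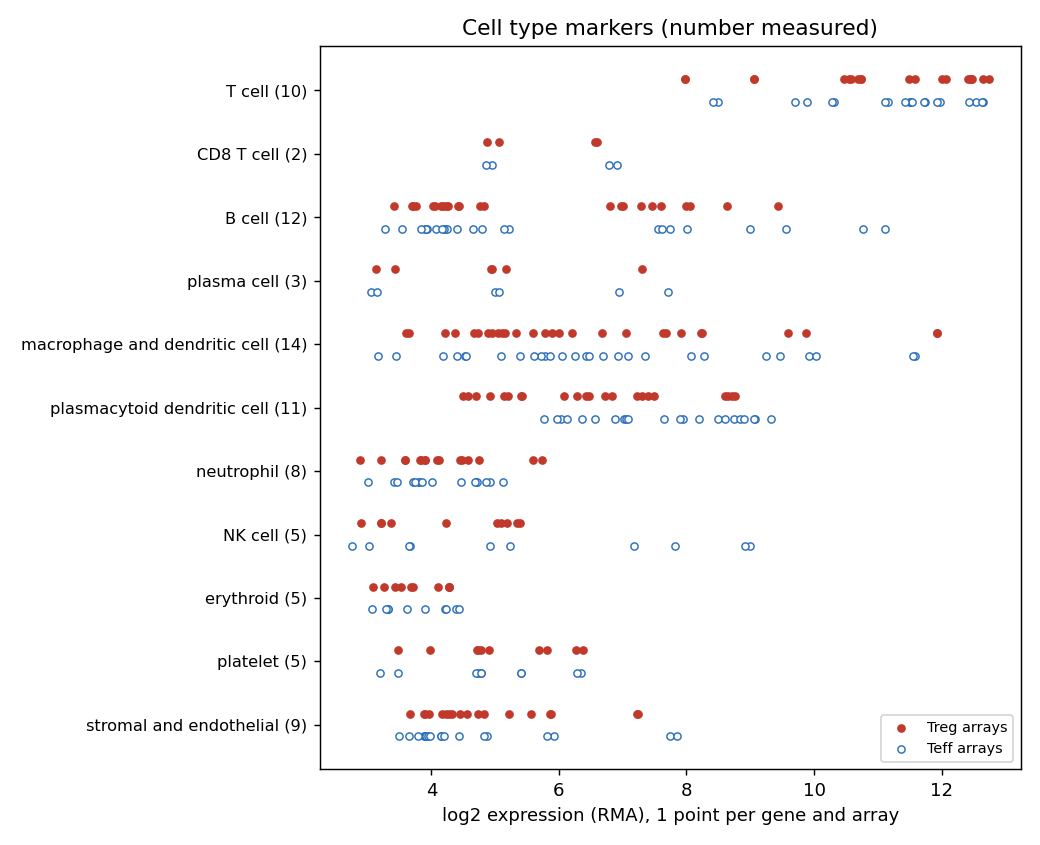
Log2 expression (x axis) of cell type markers, 1 point per gene and array, with filled points for Treg arrays above open points for Teff arrays in each list. T cell markers lie at 7.98 or above on every array, and the plasmacytoid dendritic cell list is shifted to lower values in Treg (mean level 6.37 and 6.61, against 7.54 and 7.69 in Teff arrays).

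Arrays of the same group were close for nearly all genes. The median absolute difference between the arrays of a group was 0.12 in Treg and 0.0956 in Teff, and 95% of genes differed by less than 0.415 in Treg and 0.351 in Teff. A difference of at least 2-fold occurred in 20 genes between the Treg arrays and in 15 between the Teff arrays. The widest were secreted proteins of salivary and lacrimal glands. Mucl2, a mucin-like protein, read 2.90 and 4.13 in Treg arrays and 2.98 and 9.38 in Teff arrays, and Prol1, a proline-rich secreted protein, read 2.64 and 3.24 in Treg arrays and 2.60 and 7.12 in Teff arrays.

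ABPB, a secretoglobin named androgen-binding protein, read 8.46 and 4.16 in Treg arrays and 3.11 and 7.31 in Teff arrays. PSP, the parotid secretory protein, read 10.001 and 5.85 in Treg arrays and 4.31 and 7.33 in Teff arrays. In these genes Treg array 1 and Teff array 2 were high and the other two arrays low, so that the groups overlapped. Scgb1b27, a further secretoglobin, read 6.83 and 5.43 in Treg arrays and 5.06 and 8.11 in Teff arrays, and Iglv1, an immunoglobulin light chain gene, read 3.99 and 4.42 in Treg arrays and 4.36 and 6.76 in Teff arrays. None of these 6 genes was called, with adjusted p of 0.222 to 0.8. Dcpp3, a demilune cell and parotid protein, was picked out after its values were seen: it read 12.43 and 10.67 in Treg arrays and 7.90 and 10.04 in Teff arrays, and was called higher by 2.59 (adjusted p = 0.0437). It shared the pattern of high values on Treg array 1 and, among Teff arrays, on array 2. For Dcpp3 array 2 minus array 1 was -1.76 in Treg and 2.14 in Teff, and the spread behind its p rests also on the tumour arrays.

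**Figure D5:**
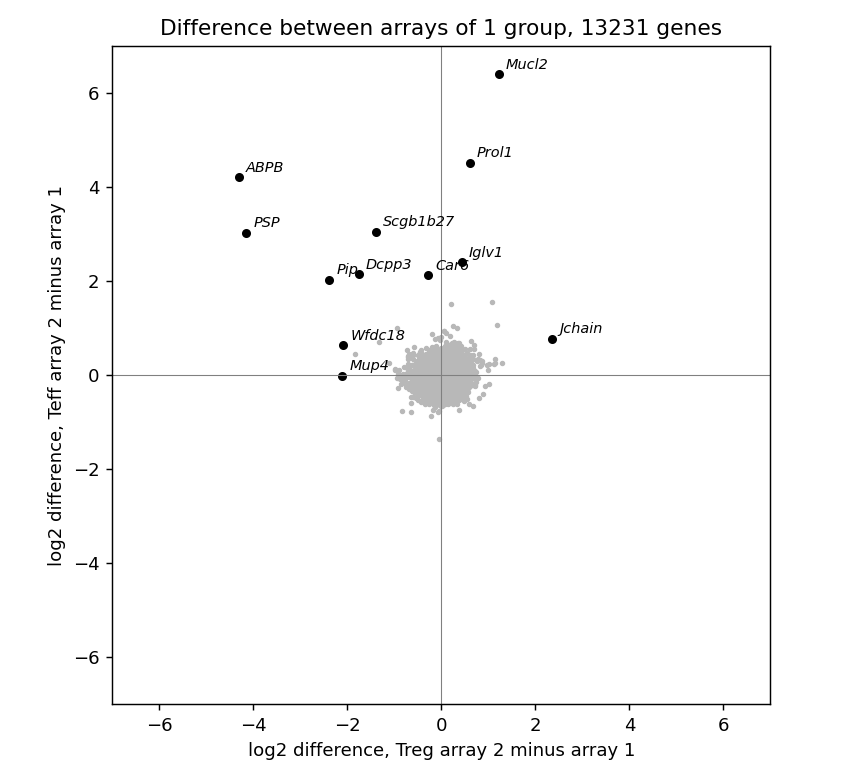
Difference between the arrays of the Treg group (x axis, log2, array 2 minus array 1) and of the Teff group (y axis, log2, array 2 minus array 1) for 13231 genes, with the 12 most variable in black. Most genes lie near 0 on both axes, and ABPB lies at -4.31 for Treg and 4.20 for Teff.

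Many genes were measured by more than 1 probe set, and few of them had probe sets called in opposite directions. Of 5236 such genes 305 had all probe sets called in the same direction, and 794 had some called in 1 direction and others not called. The other 4134 without opposite calls had none called, so they cannot show whether probe sets match. Calls in opposite directions occurred in 3 genes. For Ighm, the immunoglobulin mu heavy chain, 1 probe set read 12.32 and 12.38 in Treg arrays and 10.94 and 10.94 in Teff arrays, whereas another read 4.11 and 4.25 in Treg arrays and 6.47 and 5.95 in Teff arrays. These probe sets differed by 1.41 and -2.03, so no direction is given for Ighm. Pcyt1a (0.64 and -0.35) and Pde4dip (0.42 and -0.40) were likewise divided.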

How the data were processed

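The 4 arrays belong to a table of 8 arrays with 22690 probe sets. The values are log2 expression made by the authors with RMA, per the submitters' processing notes, which name no RMA version. Scanner intensities were not used here. RMA sets the arrays to 1 distribution, so a difference is relative to the other genes of the array. The other table of 10 arrays and 21 value columns of no sample of this comparison were not used.

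Probe sets took the names of the deposited annotation, updated with RefSeq for GRCm38.p6: 19501 by symbol, 1160 by synonym, 540 by accession and 396 as deposited, and 1029 had no single name. After 64 array controls were left out, 22626 were tested with lmFit and eBayes of limma 3.58.1 (R 4.3.3), with 1 coefficient for each of the 4 groups of the table, so that the 4 tumour arrays helped only to estimate the spread (median SE 0.109), and Benjamini-Hochberg adjustment. All adjusted p values given are limma's. A call is an adjusted p under 0.05, and 5690 probe sets had an unadjusted p under 0.05. A gene was read from its probe set with the highest mean over the 8 arrays, with no filter on dim genes. The fit was tested on simulated data. No paired fit was taken as the main one. Alternatives changed the samples, the replicate block, the prior, a filter, the scaling, the summary of probe sets and the left-out array.

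Named genes were Foxp3, the 15 largest rises and 15 largest falls called without overlap, members of the lists, every marker, genes with probe sets called in opposite directions, and the 6 genes with the widest spread within a group. The members and lists were chosen with earlier results of these data known. Figures were drawn with matplotlib 3.10.9, and tables with pandas 2.3.3 in Python 3.11.15. Some members of the lists are counted but not reported by name here.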

Additional observations from a re-analysis of the deposited data

How the results depend on the processing

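Leaving out 1 array at a time gave 1365 to 1805 probe sets called, 779 to 1051 higher and 586 to 809 lower in Treg, 585 to 666 at 2-fold or more, and 904 to 1163 genes called. In these fits the lone array of a group is assumed to vary like the other groups. Foxp3 differed by 6.78 to 6.92 and stayed called. Requiring a difference of at least 1 as well left 640 probe sets.

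The replicate numbers are not known to pair the samples: with 2 pairs, the deviations of same-numbered arrays from their group means correlated at 0.0516. With the replicate number as a block, 2741 probe sets and 1728 genes were called within each tissue, and 2519 and 1596 over both tissues.

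The other settings kept the counts of calls within 1.5 times: 2668 from the 4 arrays alone, 3434 with an intensity trend and robust prior, 2919 with a mean of at least 6, 2852 with arrays centred on their medians, 2825 with quantile normalization over the 4 arrays, and 1895 genes with the mean of probe sets. Of 237 called genes of the lists and the largest changes, 147 kept their call in every alternative that tested them and 90 lost it in at least 1. For some of those, among them Il7r, Foxp1, Cd28 and Klf2, the call ended only in fits that left 1 array in a group. No difference of a called gene changed sign in these alternatives. Some list members not called in the main fit gained a call in at least 1 alternative, among them Irf7, Tnf, Stat5a, Dnajb1 and Hspa1a. The absence of a call therefore also depends on the setting. Averaging the probe sets of a gene moved the fold of 10 of these 237 genes by over 1.5 times, each to a smaller size and 2 of them out of the calls (Bcl2l2 and Itgb5); their averaged values are given beside them above, and the cause was not tested.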
